A study of Mus musculus with 14 samples.

Results

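The MHC class I presentation genes described here are 8 genes taken by name from a table of 25124 mouse genes: B2m, H2-K1, H2-D1, Tap1, Tap2, Tapbp, Nlrc5 and Erap1. They were taken by name with no threshold on a measured value, by a choice made with earlier results of these data known. All 8 passed the filter on low counts that left 13434 genes for testing. A class I molecule is a heavy chain, encoded in C57BL/6 mice by H2-K1 and H2-D1, bound to the light chain β2-microglobulin, the product of B2m, and it shows short peptides from inside the cell to CD8 T cells. Tap1 and Tap2 form the transporter that brings peptides into the endoplasmic reticulum, Erap1 trims them there, and Tapbp encodes tapasin, which holds an empty class I molecule beside the transporter while it is loaded. Nlrc5 is a coactivator of class I transcription that is prominent in T cells, and interferon-γ is known to raise most of these genes.

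RNA came from T cells sorted out of subcutaneous tumours of AE17-OVA, a mouse mesothelioma line that carries the model antigen ovalbumin. All mice were C57BL/6 females of 8 to 12 weeks with the genotype GATIR Foxp3Cre-rfp Gata3Cre-yfp, in which the red reporter follows Foxp3, so controls and treated animals carried the same alleles. Treated mice received 200 µg of anti-PD-L1 (clone MIH5), control mice an isotype antibody (clone 2A3), by intraperitoneal injection on day 10. Cells were sorted on day 13 by PD-1, CD4, CD25 and the reporter. PD-1 is an inhibitory receptor of T cells and PD-L1 its ligand. The 14 Smart-seq2 libraries comprised 3 anti-PD-L1 and 2 isotype libraries of PD-1+ regulatory T cells (Tregs), 2 and 2 of PD-1- Tregs, and 3 and 2 of other CD4 T cells. The series text calls them biological replicates, but the sources used here do not name the animals or pools behind each, so p-values reflect only how these libraries vary.

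Libraries held 10638848 to 15030804 counts, of which the 8 genes took 1.00 to 2.08%. All 8 genes of a T cell marker list were detected in every library. Il2ra, which encodes CD25, lay at 192 to 391 CPM (counts scaled to a common library size by TMM) in PD-1+ Tregs and at 247 to 662 CPM in PD-1- Tregs, above the 13.4 to 79.5 CPM of CD4 T cells. Pdcd1, which encodes PD-1, lay at 85.6 to 246 CPM in PD-1+ Tregs, above the 21.7 to 46.5 CPM of PD-1- Tregs. Foxp3 lay at 15.9 to 156 CPM in PD-1+ Tregs and at 114 to 198 CPM in PD-1- Tregs, and the PD-1+ range overlapped the 16.3 to 55.0 CPM of CD4 T cells, so the name Treg rests less firmly on the PD-1+ libraries. The labels give female mice, yet 3 anti-PD-L1 libraries held Y-linked reads at 208 to 285 CPM. They are PD-1+ Tregs replicate 3, PD-1- Tregs replicate 2 and CD4 T cells replicate 3, and all carry the same number in brackets in their sample titles. Calls among the 8 genes that use them are also given without them, which leaves the anti-PD-L1 PD-1- Tregs with 1 library. Results of other genes, the ratios and the correlations are given only with them. In bulk libraries fewer cells of a type and less RNA per cell cannot be told apart.

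The 200 bases before the transcription start are shown for the light chain, both heavy chains and Tap1. B2m and H2-D1 gave the treatment calls described below, and H2-K1 is the close relative of H2-D1. Those of Tapbp, which gave calls between populations, and of Erap1 were searched but are not shown. All stretches are read 5′ to 3′ on the gene's own strand from RefSeq, build GRCm38.p6. This is the mm10 build of the deposited data. Capitals mark TGACG, the core of the X2 box of MHC promoters, ATTGG or its reverse complement CCAAT, the core of the Y box, and AANNGAAA or its reverse complement, a loose interferon response motif. B2m lies at chr2:122147487-122147686 on the plus strand, H2-K1 at chr17:34000348-34000547 on the minus strand, H2-D1 at chr17:35262894-35263093 on the plus strand and Tap1 at chr17:34187356-34187555 on the plus strand.
B2m: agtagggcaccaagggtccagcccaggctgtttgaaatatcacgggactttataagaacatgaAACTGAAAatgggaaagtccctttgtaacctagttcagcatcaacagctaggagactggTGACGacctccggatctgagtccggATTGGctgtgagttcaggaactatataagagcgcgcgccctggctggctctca
H2-K1: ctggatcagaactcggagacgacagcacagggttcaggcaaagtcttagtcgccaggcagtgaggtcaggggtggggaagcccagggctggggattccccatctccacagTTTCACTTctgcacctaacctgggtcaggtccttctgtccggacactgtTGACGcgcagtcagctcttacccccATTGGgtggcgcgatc
H2-D1: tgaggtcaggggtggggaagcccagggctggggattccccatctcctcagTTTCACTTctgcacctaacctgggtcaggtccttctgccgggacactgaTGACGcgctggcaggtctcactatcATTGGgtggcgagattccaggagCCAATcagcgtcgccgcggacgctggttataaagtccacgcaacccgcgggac
Tap1: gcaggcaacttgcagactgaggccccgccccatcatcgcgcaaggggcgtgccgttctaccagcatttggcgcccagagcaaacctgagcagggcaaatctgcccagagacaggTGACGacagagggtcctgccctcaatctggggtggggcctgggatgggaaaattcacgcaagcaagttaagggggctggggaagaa

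In B2m, H2-K1 and H2-D1 the TGACG is followed by ATTGG on the same strand after a gap of 20 bases. The TGACG begins at base -78 of B2m, -41 of H2-K1 and -101 of H2-D1, counted from the start used in the RefSeq table. The full windows searched ran from 250 bases before to 50 bases after the start, and H2-K1 has a further start entry that was not used. Among 32851 mouse promoter windows of the same length, 20.8% held TGACG on either strand, 37.4% ATTGG, 23.9% AANNGAAA, and 0.578% TGACG followed within 40 bases by ATTGG on the gene's strand. The H2-K1 and H2-D1 windows matched at 211 of 239 aligned bases (88.3%). Promoters of 6 of the 8 genes were found in the table. The windows of Tap1, Tapbp and Erap1 did not hold TGACG followed by ATTGG in this way, and those of Tapbp and Erap1 held no TGACG. These matches describe letters and are not evidence of binding.

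Per unit of transcript length, the light chain was the most abundant of the 8 genes. The authors' RPKM values (reads normalised to transcript length and library size) averaged 6226 ± 1620 for B2m over the 14 libraries (SD), which ranked 5 among all 25124 genes. H2-D1 averaged 1786 ± 729 and H2-K1 1504 ± 216 RPKM, at ranks 15 and 19. Tapbp followed at 252 ± 77.8, Tap2 at 130.0 ± 65.1, Tap1 at 79.9 ± 34.3, Erap1 at 19.1 ± 7.63 and Nlrc5 at 13.5 ± 3.89 RPKM. The heavy chains changed places between libraries, H2-D1 standing above H2-K1 in 9 of 14. Tap2 stood above Tap1 in 13 of 14 libraries and Erap1 above Nlrc5 in 11 of 14, so these neighbours had no fixed order. B2m stood above both heavy chains, both heavy chains above Tapbp, and Tapbp above both transporter genes in every library.

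**Figure D1:**
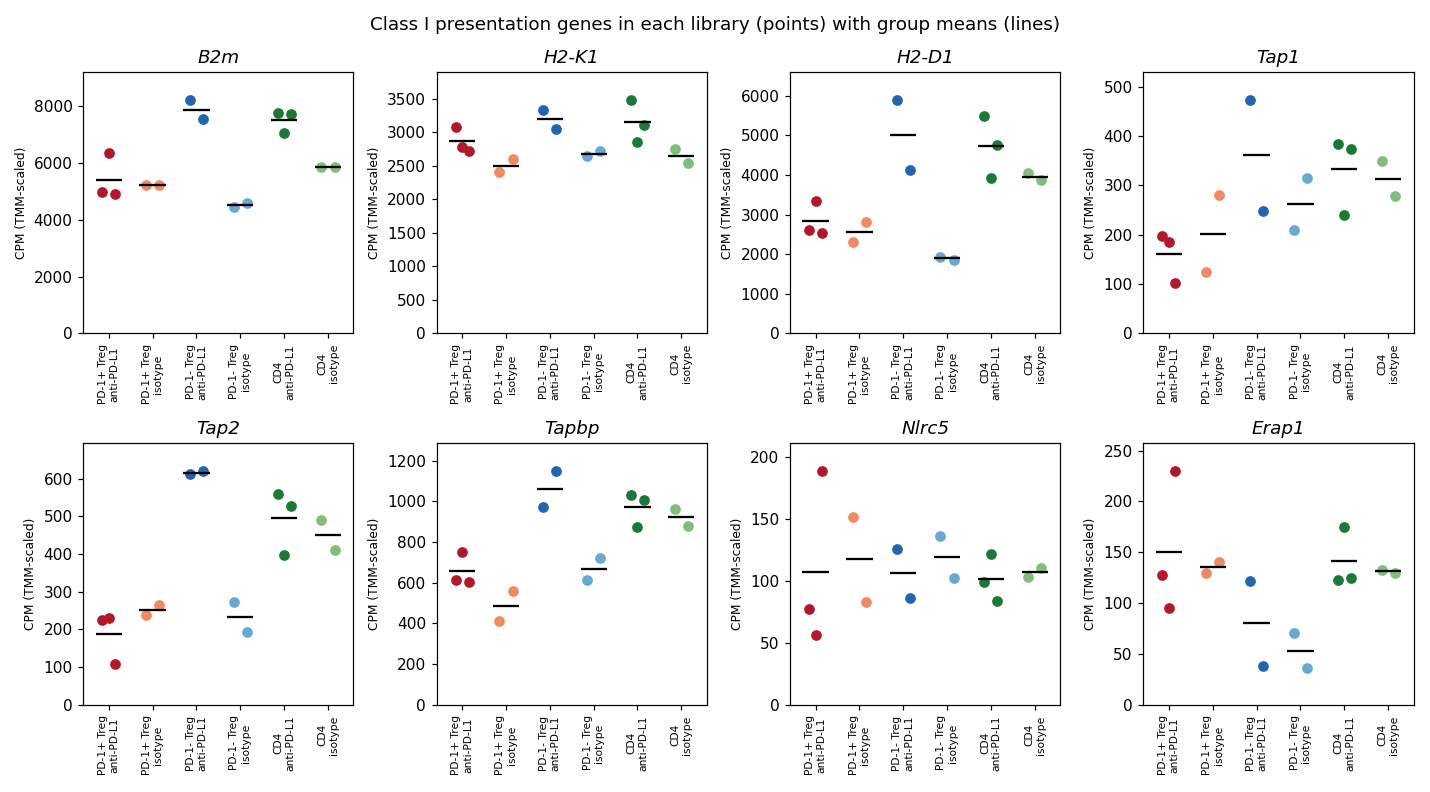
CPM on TMM-scaled library sizes for each of the 8 genes, with a point for each library and a line at the mean of its group. H2-D1 and Tap2 separate the anti-PD-L1 from the isotype PD-1- Tregs, while the points of Nlrc5 and Erap1 are spread within groups.

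The clearest change with treatment was in the light chain and the H2-D1 heavy chain of PD-1- Tregs. B2m was at 8227 and 7545 CPM in anti-PD-L1 PD-1- Tregs, against 4458 and 4592 CPM in isotype PD-1- Tregs. H2-D1 was at 5897 and 4123 CPM in anti-PD-L1 PD-1- Tregs, against 1925 and 1863 CPM in isotype PD-1- Tregs. For both genes every treated library stood above every isotype library. B2m rose by 0.80 ± 0.13 on the log2 scale (SE, adjusted p = 0.00885) and H2-D1 by 1.40 ± 0.21 (adjusted p = 0.00528), by edgeR's quasi-likelihood test over all 13434 genes with Benjamini-Hochberg adjustment and a threshold of 0.05. These were 2 of the 8 genes, beside 2.66% of all genes tested (1.38% higher).

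H2-K1, the other heavy chain, was at 3327 and 3050 CPM in anti-PD-L1 PD-1- Tregs, against 2637 and 2715 CPM in isotype PD-1- Tregs, a difference of 0.25 ± 0.13 that did not pass (adjusted p = 0.31). Tap2 was at 612 and 620 CPM in anti-PD-L1 PD-1- Tregs, against 273 and 194 CPM in isotype PD-1- Tregs. The Tap2 groups did not overlap, and its difference of 1.40 ± 0.34 missed the threshold in the edgeR fit (adjusted p = 0.0523). It passed in 7 of 12 alternatives (adjusted p of 0.000727 to 0.705 over the 12), among them DESeq2, limma-voom and RLE size factors. With 1 library left out, the Tap2 change ran from 1.15 to 1.66 and passed only without replicate 3 of anti-PD-L1 PD-1+ Tregs. Tapbp was at 973 and 1148 CPM in anti-PD-L1 PD-1- Tregs, against 613 and 723 CPM in isotype PD-1- Tregs, a difference of 0.67 ± 0.21 (adjusted p = 0.108). Its groups did not overlap either, so tapasin was higher in both treated libraries without passing the test.

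The partner subunit of the transporter was less even. Tap1 was at 473 and 248 CPM in anti-PD-L1 PD-1- Tregs, against 210 and 315 CPM in isotype PD-1- Tregs, and the groups overlapped (0.46 ± 0.47, adjusted p = 0.733). Erap1 was at 122 and 38.1 CPM in anti-PD-L1 PD-1- Tregs, against 70.3 and 35.7 CPM in isotype PD-1- Tregs, and Nlrc5 at 126 and 86.1 CPM in the treated libraries, against 136 and 102 CPM in the isotype libraries. Neither the trimming enzyme nor the coactivator passed the test (adjusted p = 0.712 for Erap1 and 1 for Nlrc5). In all, 5 of the 8 genes were higher in both treated libraries than in both isotype ones, beside 12.5% of all genes, and the median change was 0.63 for the 8 genes and 0 for all genes on the log2 scale.

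Both PD-1- calls were kept with any single library left out, B2m at adjusted p of 0.00482 to 0.0336 and H2-D1 at 0.00248 to 0.0164. They were lost with only the 4 PD-1- Treg libraries in the fit (adjusted p = 0.705 for each), with limma-voom (0.335 for B2m and 0.863 for H2-D1) and with limma-voom and library quality weights (0.438 and 0.636). The fit of 4 libraries and the fit with quality weights each called 0 of all genes. Limma-voom called Tap2 and Tapbp in place of B2m and H2-D1 (adjusted p = 0.0166 and 0.043). DESeq2 called all 4, among 2755 of all genes. Without the libraries that held Y-linked reads, the changes of B2m, H2-D1 and Tap2 were 0.84, 1.61 and 1.36. That fit has 1 anti-PD-L1 PD-1- Treg library, so the spread comes from other groups and the isotype libraries. Leaving out either library of a PD-1- Treg group likewise leaves 1 in that group.

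Other properties of the PD-1- Treg libraries moved with treatment. Actb took 3.16 and 2.74% of counts in anti-PD-L1 PD-1- Tregs, against 6.53 and 8.71% in isotype PD-1- Tregs. Rn45s, the ribosomal RNA precursor, took 0.318 and 0.368% in anti-PD-L1 PD-1- Tregs, against 0.213 and 0.13% in isotype PD-1- Tregs. Of 12 macrophage and monocyte markers only Mrc1 passed, lower in treated libraries, and the list summed to 1227 to 1287 CPM in treated and 1036 to 1705 CPM in isotype libraries. None of 12 dendritic cell and MHC class II markers passed, with sums of 9225 to 10904 CPM in treated and 14166 to 15285 CPM in isotype libraries. With treatment 4 macrophage and monocyte genes were higher and 6 lower, and 2 of the dendritic cell list were higher and 7 lower. Of all genes 41.6% were higher. Csf1r of the macrophage list was higher without overlap, at 19.9 to 41.1 CPM in treated and 0 to 1.27 CPM in isotype libraries. C1qa and Fcgr1, and Batf3, Xcr1 and Zbtb46 of the dendritic cell list, were at 0 in all 4 libraries. B cell, CD8 T and NK cell and stromal lists had no gene past the threshold. The part of Actb, Rn45s and these markers in the class I result was not tested.

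**Figure D2:**
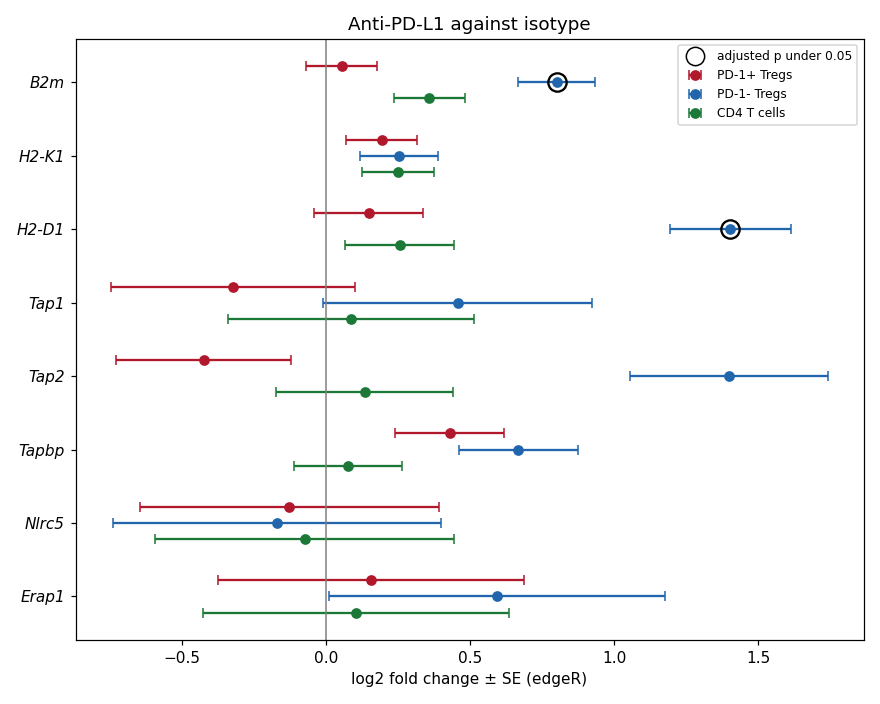
Log2 fold changes of anti-PD-L1 over isotype with SE for the 8 genes in PD-1+ Tregs, PD-1- Tregs and CD4 T cells, by edgeR. Black circles mark the 2 changes past an adjusted p of 0.05, B2m and H2-D1 in PD-1- Tregs.

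No class I gene passed the test in PD-1+ Tregs, beside 0.0149% of all genes, and the smallest adjusted p among the 8 was 0.607. B2m was at 4965, 6372 and 4913 CPM in anti-PD-L1 PD-1+ Tregs, against 5222 and 5215 CPM in isotype PD-1+ Tregs (0.05 ± 0.12). H2-D1 was at 2620, 3335 and 2540 CPM in anti-PD-L1 PD-1+ Tregs, against 2305 and 2806 CPM in isotype PD-1+ Tregs (0.15 ± 0.19), and H2-K1 at 3081, 2776 and 2723 CPM in the treated libraries, against 2408 and 2592 CPM in the isotype libraries (0.19 ± 0.12). The light chain and H2-D1 groups overlapped, and those of H2-K1 did not. Tapbp was at 611, 750 and 605 CPM in anti-PD-L1 PD-1+ Tregs, against 413 and 560 CPM in isotype PD-1+ Tregs, without overlap (0.43 ± 0.19, adjusted p = 0.607). Tap2 was at 224, 229 and 109 CPM in anti-PD-L1 PD-1+ Tregs, against 238 and 265 CPM in isotype PD-1+ Tregs, every treated library below every isotype one (-0.43 ± 0.30, adjusted p = 0.846). Together 2 genes were higher and 1 was lower without overlap, beside 7.69% higher and 11.5% lower of all genes.

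The remaining genes varied within the PD-1+ groups. Tap1 ranged from 101 to 198 CPM in anti-PD-L1 and from 123 to 280.0 CPM in isotype PD-1+ Tregs. Nlrc5 was at 77.5, 56.3 and 189 CPM in anti-PD-L1 PD-1+ Tregs, against 152 and 83.3 CPM in isotype PD-1+ Tregs. Erap1 was at 127, 94.6 and 230 CPM in the treated libraries, against 129 and 141 CPM in the isotype libraries. The high Nlrc5 and Erap1 values came from replicate 3, which is also the library with Y-linked reads, and it had the lowest Tap1 and Tap2. Actb took 5.88 to 7.27% of counts in anti-PD-L1 and 3.60 to 4.26% in isotype PD-1+ Tregs. Rn45s took 0.117, 0.146 and 0.0816% in anti-PD-L1 PD-1+ Tregs, against 0.209 and 0.255% in isotype PD-1+ Tregs. B cell markers summed to 38.8 to 130 CPM in anti-PD-L1 and 242 to 467 CPM in isotype libraries, with none of 8 past the threshold.

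In CD4 T cells no class I gene passed either, beside 0.00744% of all genes. B2m was at 7762, 7045 and 7729 CPM in anti-PD-L1 CD4 T cells, against 5856 and 5866 CPM in isotype CD4 T cells. The light chain was thus higher in every treated library, by 0.36 ± 0.12, at an unadjusted p of 0.0126 and an adjusted p of 1 by edgeR. H2-K1 was at 3480, 2853 and 3110 CPM in anti-PD-L1 CD4 T cells, against 2749 and 2546 CPM in isotype CD4 T cells, without overlap (0.25 ± 0.12). H2-D1 was at 5497, 3911 and 4759 CPM in anti-PD-L1 CD4 T cells, against 4043 and 3868 CPM in isotype CD4 T cells, and these overlapped. With limma-voom B2m passed in CD4 T cells, and with quality weights B2m and H2-K1 did.

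The peptide supply genes of CD4 T cells hardly separated by treatment. Tap1 was at 384, 239 and 374 CPM in anti-PD-L1 CD4 T cells, against 349 and 277 CPM in isotype CD4 T cells (0.09 ± 0.43). Tap2 was at 558, 398 and 526 CPM in treated cells, against 491 and 409 CPM in isotype cells (0.13 ± 0.31). Tapbp was at 1029, 872 and 1008 CPM in treated cells, against 962 and 879 CPM in isotype cells (0.07 ± 0.19). Nlrc5 ranged from 84.0 to 122 CPM in anti-PD-L1 and from 104 to 110 CPM in isotype CD4 T cells, and Erap1 from 123 to 175 CPM in anti-PD-L1 and from 130 to 132 CPM in isotype CD4 T cells. Thus 2 of the 8 genes, B2m and H2-K1, did not overlap between groups, both higher, beside 12.5% of all genes. Markers of other cells moved between the same groups. B cell markers summed to 52.2 to 98.8 CPM in anti-PD-L1 and 226 to 251 CPM in isotype CD4 T cells, with all 8 genes lower. The mesothelial tumour and stroma list summed to 318 to 903 CPM in anti-PD-L1 and 1257 to 1692 CPM in isotype CD4 T cells, with 11 of 13 genes lower. No gene of either list passed, and the part of these markers in the B2m and H2-K1 differences was not tested.

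Whether the treatment change differed between populations was tested directly. For H2-D1 the change in PD-1- Tregs exceeded that in PD-1+ Tregs by 1.26 ± 0.28 on the log2 scale (adjusted p = 0.0481), 1 of the 8 genes, beside 1.46% of all genes. The same difference was 0.75 ± 0.18 for B2m (adjusted p = 0.0667) and 1.82 ± 0.46 for Tap2 (adjusted p = 0.0765), and neither passed. The H2-D1 call was kept without replicate 2 of either anti-PD-L1 Treg group and lost, at adjusted p of 0.0524 to 0.178, with any of the other 12 libraries left out. Without the libraries with Y-linked reads, which leaves 1 anti-PD-L1 PD-1- Treg library, the H2-D1 difference was 1.42. The call was lost with only the Treg libraries in the fit (adjusted p = 0.233), which called 0 of all genes. Between PD-1- Tregs and CD4 T cells the H2-D1 changes differed by 1.15 ± 0.28 (adjusted p = 0.0861), and 0.975% of all genes passed but none of the 8. Between PD-1+ Tregs and CD4 T cells no gene of the whole table passed in edgeR, with 470 of 13434 at an unadjusted p under 0.05, and DESeq2 called none of the 8.

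Averaged over the 3 populations with equal weight, B2m rose by 0.40 ± 0.07 (adjusted p = 0.0195) and H2-D1 by 0.60 ± 0.11 (adjusted p = 0.0245), 2 of the 8 genes beside 1.23% of all genes. Both averages include the PD-1- Tregs. Without the libraries with Y-linked reads, which leaves 1 anti-PD-L1 PD-1- Treg library, they were 0.42 for B2m and 0.68 for H2-D1. Both calls were lost without replicate 1 or 2 of isotype CD4 T cells, replicate 1 or 3 of anti-PD-L1 CD4 T cells, or replicate 1 or 2 of isotype PD-1+ Tregs, at adjusted p of 0.067 to 0.117 for B2m and 0.053 to 0.12 for H2-D1. Among 11 other settings B2m passed in 6 and H2-D1 in 5. Both were lost with limma-voom (adjusted p = 0.166 for B2m and 0.76 for H2-D1), with quality weights (0.102 and 0.422), with unfiltered RPKM (0.0705 and 0.0805) and with a replicate block by either numbering (0.0911 and 0.0909 for B2m, 0.0985 and 0.0832 for H2-D1). H2-K1 (0.23 ± 0.07, adjusted p = 0.168) and Tapbp (0.39 ± 0.11, adjusted p = 0.134) did not pass.

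Between populations, with isotype and treated libraries weighted equally, tapasin was the only gene of the 8 to pass. Tapbp ranged from 413 to 750 CPM in the 5 PD-1+ Treg libraries, from 613 to 1148 CPM in the 4 PD-1- Treg libraries and from 872 to 1029 CPM in the 5 CD4 T cell libraries. It was lower in PD-1+ Tregs than in CD4 T cells (log2 fold change -0.74 ± 0.13, adjusted p = 0.0333 by edgeR) and the groups did not overlap. Against PD-1- Tregs the change was -0.58 ± 0.14 (adjusted p = 0.0381), with overlap. The 8 genes gave 1 call beside 0.35% of all genes against CD4 T cells, and 1 beside 4.28% against PD-1- Tregs. The median of all genes was itself shifted, at -0.23 against CD4 T cells and 0.42 against PD-1- Tregs. Fewer genes had a count in PD-1- than in PD-1+ Tregs, and fewer in PD-1+ Tregs than in CD4 T cells. The part of detection in these medians was not tested, so they are not used as a reference for Tapbp.

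The Tapbp call against CD4 T cells was lost, at adjusted p of 0.083 to 0.311, without replicate 1 or 2 of isotype CD4 T cells, replicate 1 or 3 of anti-PD-L1 CD4 T cells, replicate 1 of isotype PD-1+ Tregs, or replicate 1 or 3 of anti-PD-L1 PD-1+ Tregs. Against PD-1- Tregs it was kept without replicate 1 of isotype PD-1- Tregs, replicate 1 of anti-PD-L1 PD-1- Tregs, replicate 2 of isotype PD-1+ Tregs or replicate 2 of anti-PD-L1 PD-1+ Tregs, and lost without any of the other 10 (0.0548 to 0.142). Neither held without the libraries with Y-linked reads (adjusted p = 0.16 and 0.163).

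The transporter genes and H2-D1 were also lower, without passing in the edgeR fit. Tap2 ranged from 109 to 265 CPM in PD-1+ Tregs and from 398 to 558 CPM in CD4 T cells, without overlap (-1.12 ± 0.22, adjusted p = 0.0605). H2-D1 ranged from 2305 to 3335 CPM in PD-1+ Tregs and from 3868 to 5497 CPM in CD4 T cells, also without overlap (-0.68 ± 0.13, adjusted p = 0.0605). Among 12 alternatives Tap2 passed in 8 and H2-D1 in 6, both of them with DESeq2, without filter, with only the compared libraries and on each RPKM scale. In all, 3 of the 8 genes were lower without overlap, beside 4.72% of all genes. B2m (-0.32 ± 0.09, adjusted p = 0.206) and Tap1 (-0.84 ± 0.30, adjusted p = 0.33) overlapped. Against PD-1- Tregs, Tap2 stood at -0.81 ± 0.23 (adjusted p = 0.0666) and Tap1 at -0.77 ± 0.31 (adjusted p = 0.169). Erap1 was the exception in sign, at 94.6 to 230 CPM in PD-1+ Tregs and 35.7 to 122 CPM in PD-1- Tregs (1.13 ± 0.40, adjusted p = 0.124).

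Comparing PD-1- Tregs with CD4 T cells, none of the 8 genes passed, beside 3.6% of all genes. H2-D1 came closest at -0.49 ± 0.14 (adjusted p = 0.0707) and Erap1 stood at -1.06 ± 0.40 (adjusted p = 0.12). The median of the 8 genes was -0.16, above the -0.94 of all genes. Fewer genes had a count in PD-1- Tregs than in CD4 T cells, and the part of detection in the -0.94 was not tested. Because H2-D1 differed between treatments within the PD-1- Tregs, this average joins unlike groups. Of the anti-PD-L1 PD-1- Tregs, 1 library lay within the CD4 range at 4123 CPM and 1 above it at 5897 CPM, while the isotype PD-1- Tregs lay below it at 1925 and 1863 CPM.

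**Figure D3:**
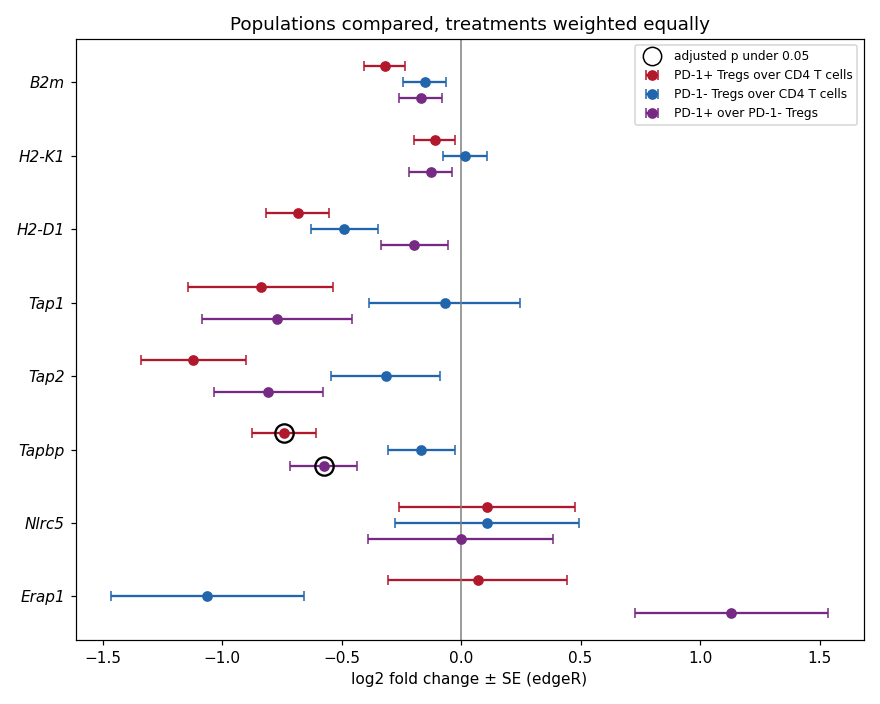
Log2 fold changes with SE for the 8 genes in PD-1+ Tregs over CD4 T cells, PD-1- Tregs over CD4 T cells and PD-1+ over PD-1- Tregs, by edgeR. Black circles mark the 2 comparisons past an adjusted p of 0.05, both of Tapbp.

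Markers of other cells differed between the sorted populations. Macrophage and monocyte genes summed to 4843 to 8609 CPM in PD-1+ Tregs, 1036 to 1705 CPM in PD-1- Tregs and 3442 to 8535 CPM in CD4 T cells, and 11 of 12 passed as higher in PD-1+ than in PD-1- Tregs. The dendritic cell and class II list summed to 20206 to 49486 CPM in PD-1+ Tregs, 9225 to 15285 CPM in PD-1- Tregs and 15144 to 29298 CPM in CD4 T cells, and 8 of 12 passed as higher in PD-1+ than in PD-1- Tregs. Against CD4 T cells none of either list passed for PD-1+ Tregs. Such cells also carry class I genes. The number of genes with a count also differed by population, at 9662 to 11312 in PD-1+ Tregs, 8027 to 8801 in PD-1- Tregs and 12119 to 14535 in CD4 T cells. The part of these markers and of detection in the class I levels was not tested.

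The order of the heavy chains, as counted, differed between treated and isotype PD-1- Tregs. The ratio of H2-D1 to H2-K1 RPKM within a library was 0.806, 1.14 and 0.884 in anti-PD-L1 PD-1+ Tregs, against 0.907 and 1.03 in isotype PD-1+ Tregs. It was 1.68 and 1.28 in anti-PD-L1 PD-1- Tregs, against 0.692 and 0.65 in isotype PD-1- Tregs, and 1.497, 1.30 and 1.45 in anti-PD-L1 CD4 T cells, against 1.39 and 1.44 in isotype CD4 T cells. As counted, H2-K1 was thus ahead in isotype PD-1- Tregs and H2-D1 in treated ones. In the isotype PD-1- Tregs H2-D1 held 20674 and 20580 counts and H2-K1 28319 and 30003. H2-L, a further heavy chain gene described below, held 10722 and 10954 there, more than the gap between them. The order in isotype PD-1- Tregs thus depends on whether H2-L counts belong to H2-D1, which was not tested. All 5 PD-1+ Treg libraries lay below all 5 CD4 T cell libraries (two-sided exact permutation p = 0.00794, the smallest the design allows, and 0.0953 after adjustment over 12 ratio tests). With 2 libraries against 2 the smallest exact permutation p is 0.333, so the PD-1- treatment difference could not be called, and none of the 12 tests passed after adjustment. For CD4 T cells and PD-1+ Tregs the treatment groups overlapped. These ratios were chosen after the levels were seen.

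**Figure D4:**
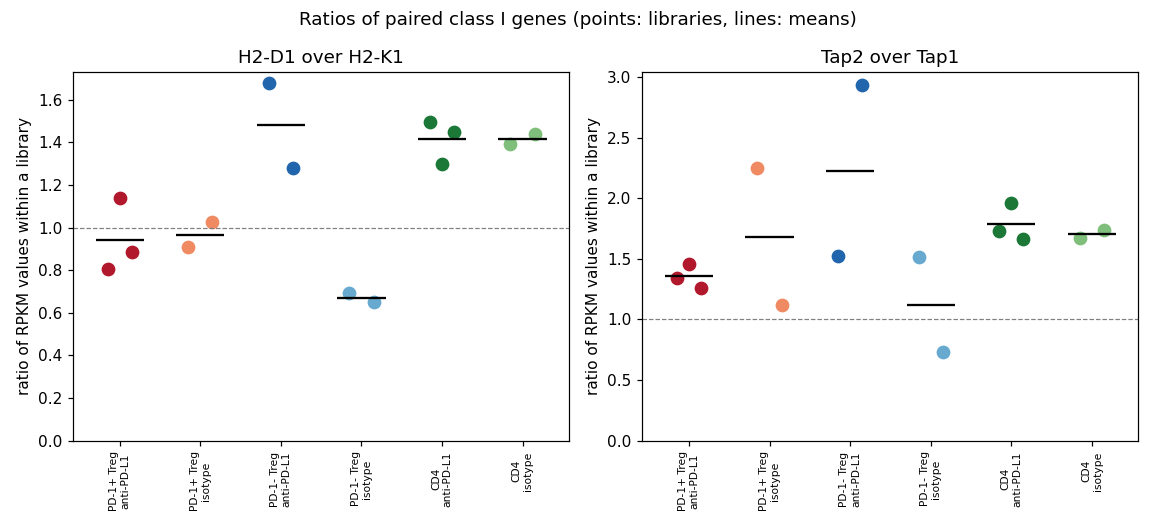
Ratio of RPKM values within each library for H2-D1 over H2-K1 and for Tap2 over Tap1, with a point for each library, a line at the group mean and a dashed line at equal levels. The anti-PD-L1 PD-1- Tregs lie at 1.28 and 1.68 for the heavy chains and the isotype ones at 0.65 and 0.692.

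Class I heavy chain genes are near-identical in places, and their counts are uncertain to that extent. Counts given to H2-L, a heavy chain gene whose product C57BL/6 mice are known to lack, ran at 50.9 to 60.7% of those of H2-D1 in all 14 libraries. The share moved with treatment in PD-1- Tregs, at 59.5 and 60.5% in anti-PD-L1 libraries, against 51.9 and 53.2% in isotype libraries. In the GENCODE M21 transcripts, 13.9% of the 50-base stretches of H2-D1 and 6.87% of those of H2-K1 also occurred in another gene. H2-L was not among the genes that shared most with H2-D1 there, so the 13.9% may understate the overlap in the counts. The split between the heavy chains is thus uncertain, while B2m and Nlrc5 shared no such stretch. Overlap with neighbours reached 22.4% for Tapbp, 13.7% for Erap1, 12.1% for Tap2 and 6.27% for Tap1. The sources used here do not say whether strand was used in counting.

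The 8 genes did not vary as 1 block. Across the 14 libraries, log2 CPM of the light chain, heavy chain, transporter and tapasin genes correlated at Pearson's r of 0.551 to 0.941 over 15 pairs, and pairs with Nlrc5 or Erap1 at -0.353 to 0.316. B2m and H2-D1 were the closest pair at 0.941. These libraries share their groups and their scaling, so the values are a description. Among 8826 genes ranked by likeness to the mean profile of the 8, H2-L came first at 0.943, followed by Shisa5 (0.917), Cd3e (0.916), Ldb1 (0.907) and Saraf (0.90).

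Counted as a share of the library, the 8 genes took 1.14, 1.30 and 1.04% of counts in anti-PD-L1 PD-1+ Tregs and 1.13 and 1.23% in isotype ones. They took 2.08 and 1.81% in anti-PD-L1 PD-1- Tregs, against 1.04 and 1.00% in isotype PD-1- Tregs, and 1.91, 1.51 and 1.74% in anti-PD-L1 CD4 T cells, against 1.55 and 1.46% in isotype CD4 T cells.

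**Figure D5:**
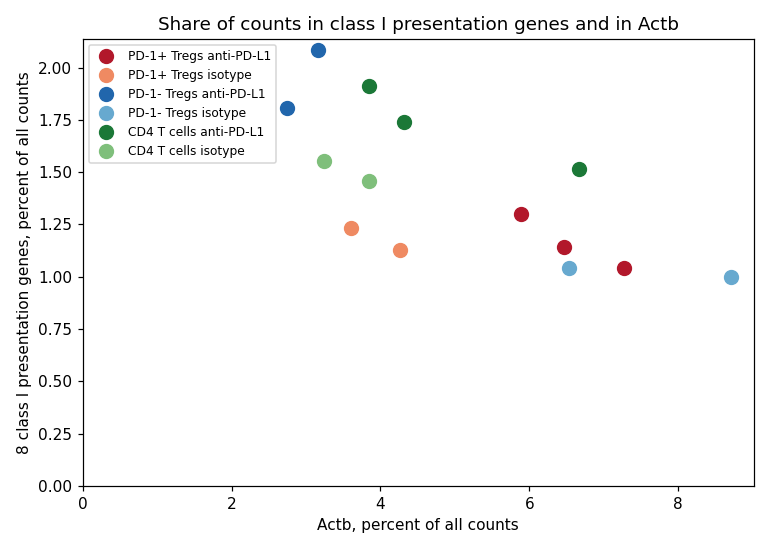
Percent of all counts in the 8 class I presentation genes against percent in Actb, with a point for each library coloured by group. The anti-PD-L1 PD-1- Tregs lie at 2.08 and 1.81% for the class I genes and at 3.16 and 2.74% for Actb, and the isotype PD-1- Tregs at 1.04 and 1.00% and at 6.53 and 8.71%.

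Few other genes of the pathway passed the test. Of 14 further class I and class I-like heavy chain genes, H2-T3 was removed by the filter and none of the other 13 passed in any treatment comparison. H2-T22, a nonclassical class I gene, was lower in PD-1+ than in PD-1- Tregs, at 148 to 212 CPM in PD-1+ Tregs against 217 to 453 CPM in PD-1- Tregs (-0.78 ± 0.18, adjusted p = 0.0327). Its counts are uncertain, since those of its near-copy H2-T9 ran at 96.7 to 99.3% of them. None of 10 peptide loading and folding genes and none of 6 immunoproteasome genes passed in any comparison. Psmb9, an immunoproteasome subunit whose gene adjoins Tap1, was at 342 and 349 CPM in anti-PD-L1 PD-1- Tregs, against 123 and 179 CPM in isotype PD-1- Tregs (1.20 ± 0.35, adjusted p = 0.0945), without overlap.

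Of 17 regulators of class I transcription, only Atf1, which binds cyclic AMP response elements, passed, at 0 and 0.148 CPM in anti-PD-L1 PD-1- Tregs, against 22.8 and 28.7 CPM in isotype PD-1- Tregs (adjusted p = 0.046). In PD-1+ Tregs 14 of the 17 were higher with treatment, beside 48% of all genes, with a median change of 0.67, and none passed. In PD-1- Tregs 9 of the 17 were higher, and in CD4 T cells 5. Some are low, such as Nfya at a mean of 5.63 ± 5.58 CPM (SD) over the 14 libraries. Irf1, a transcription factor of the interferon response, did not pass in any comparison. Among 8 genes of interferon-γ receptor signalling, Ifngr1, the ligand-binding receptor chain, rose in all 3 populations. It was at 1970 to 2598 CPM in anti-PD-L1 PD-1+ Tregs against 549 to 599 CPM in isotype ones (1.93 ± 0.21, adjusted p = 0.00564). In PD-1- Tregs it was at 1836 and 2600 CPM in anti-PD-L1 libraries against 542 and 561 CPM in isotype libraries (2.01 ± 0.22, adjusted p = 0.00119), and in CD4 T cells it rose by 2.09 ± 0.21 (adjusted p = 0.00386). Socs1, an inhibitor of the same pathway, rose in PD-1- Tregs, at 402 and 438 CPM in anti-PD-L1 libraries against 43.5 and 107 CPM in isotype libraries (2.48 ± 0.50, adjusted p = 0.0207), and was lower in PD-1+ than in PD-1- Tregs (-1.72 ± 0.33, adjusted p = 0.0132). Jak1, a kinase of the receptor, was lower in PD-1+ Tregs than in CD4 T cells (-1.02 ± 0.17, adjusted p = 0.0263).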

How the data were processed

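The authors deposited raw counts per gene and RPKM values (reads normalised to transcript length and library size) for 14 libraries, per the file headers. Build mm10 and the tools SAMtools, DESeq2, HISAT2 2.0.4 and HOMER 3.12 are listed in the submitters' processing notes, and the sources used here do not give annotation, strand or counting settings. The deposited counts entered edgeR 4.0.16 (R 4.3.3), in 1 quasi-likelihood fit of 6 group means with TMM scaling, filterByExpr at a minimum count of 10, robust estimation and Benjamini-Hochberg adjustment over 13434 genes (threshold 0.05). The SE was taken as the absolute log2 change divided by √F. CPM use TMM-scaled library sizes without a prior count, and a prior count of 2 entered only the correlations. The authors' RPKM served to compare genes and, with limma 3.58.1, as an alternative, as did DESeq2 1.42.0. The common biological coefficient of variation was 1.22. Replicates of 1 group were never identical. Deviations from the group mean correlated at -0.0333 to 0.074 between libraries of the same replicate number in different groups. By bracket number the range was -0.00659 to 0.074. For unlike numbers it was -0.074 to 0.0449 by either numbering. With 2 or 3 libraries in a group these values cannot show whether the numbers pair libraries. The 8 genes, the pathway and marker lists and the naming rules were chosen with earlier results of these data known. The genes named are the 8 members, list members that passed and the 5 genes of most similar pattern, and H2-L, Psmb9 and Irf1 were added after values were seen. Amplified reads are not independent molecules.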

Additional observations from a re-analysis of the deposited data

Results flagged for a closer look

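The treatment change of H2-D1 differed between the Treg populations, by 1.26 on the log2 scale in PD-1- minus PD-1+ Tregs. Tap2 moved in opposite directions without overlap, at 1.40 in the PD-1- Treg and -0.43 in the PD-1+ Treg libraries, and the test of that difference did not pass (1.82 ± 0.46, adjusted p = 0.0765 by edgeR).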

How the results depend on the processing

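Over 76 values and 1953 recomputed ones, no change past the threshold turned its direction. Members past the threshold for treatment in PD-1- Tregs (2 as reported) numbered 4 with DESeq2 and 0 with limma-voom and quality weights or with only the compared libraries. For treated CD4 T cells (0) they numbered 1 with limma-voom and 2 with quality weights. For the mean treatment change (2) they numbered 4 with DESeq2, 1 with log2(RPKM + 1), and 0 with either limma-voom fit, log2(RPKM + 1) without filter or either replicate block. For PD-1+ against PD-1- Tregs (1) they numbered 3 with DESeq2 and 0 with quality weights, only the compared libraries, log2(RPKM + 1) with or without filter, either replicate block, or without the Y-linked libraries. For PD-1+ Tregs against CD4 T cells (1) they numbered 4 with DESeq2 or log2(RPKM + 0.1), 3 without filter, with quality weights, only the compared libraries or log2(RPKM + 1) with or without filter, 2 with limma-voom, and 0 with either replicate block or without the Y-linked libraries. For PD-1- Tregs against CD4 T cells (0) they numbered 1 without filter or with log2(RPKM + 0.1). For the treatment difference of PD-1- minus PD-1+ Tregs (1) they numbered 3 with DESeq2, 2 with RLE, without filter, or with either filtered RPKM scale, and 0 with either limma-voom fit, only the compared libraries, unfiltered RPKM or either replicate block, and for PD-1- Tregs minus CD4 T cells (0) 2 with DESeq2 and 1 without filter. With 1 library left out the counts ran from 0 to 3 for PD-1+ Tregs against CD4 T cells, 0 to 2 for the mean, for PD-1+ against PD-1- Tregs, for PD-1- Tregs against CD4 T cells and for the PD-1- minus PD-1+ difference, and 0 to 1 for PD-1- Tregs minus CD4 T cells. The replicate block was an alternative only, since the sources used here do not say whether the numbers pair libraries. Quality weights called 0 of all genes for PD-1- Treg treatment, PD-1+ against PD-1- Tregs and the PD-1- minus PD-1+ difference. The fit of only the compared libraries called 0 for PD-1- Treg treatment and the same difference, and 33 for PD-1+ against PD-1- Tregs. Log2(RPKM + 1) called 524 for PD-1+ against PD-1- Tregs. A setting with 0 of all genes called had no member to count. The cause of these shifts in the member counts was not tested.

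Only uncalled changes reversed. Under RPKM scales B2m in PD-1+ Tregs was -0.083, Nlrc5 in PD-1- Tregs 0.0021 and 0.00093, Erap1 in PD-1+ Tregs -0.063 and -0.069, and H2-K1 in PD-1- Tregs against CD4 T cells -0.028. For PD-1+ Tregs against CD4 T cells, RPKM gave Nlrc5 -0.083 and -0.096 and Erap1 -0.051 and -0.054. Erap1 in PD-1+ Tregs was -0.0089 with limma-voom, -0.10 with quality weights, -0.079 with the replicate block and -0.31 without the Y-linked libraries. Without those libraries Nlrc5 was 0.051 for PD-1- Treg treatment, 0.034 for CD4 T cell treatment and -0.32 for PD-1+ Tregs against CD4 T cells, Tap1 -0.020 in CD4 T cells and 0.15 for PD-1- Tregs against CD4 T cells, and Erap1 -0.21 for PD-1+ Tregs against CD4 T cells. Nlrc5 for PD-1+ Tregs against CD4 T cells was -0.067 with limma-voom, -0.098 with quality weights and -0.026 with the block. With quality weights Erap1 was -0.0098 in CD4 T cells and -0.0036 for PD-1+ Tregs against CD4 T cells, and H2-K1 -0.0019 for PD-1- Tregs against CD4 T cells, as without filter. Tap1 for PD-1- Tregs against CD4 T cells was 0.025 with RLE and DESeq2. With 1 library left out, these treatment changes crossed 0. In PD-1+ Tregs B2m ran from -0.079 to 0.12, H2-D1 from -0.022 to 0.27, Tap1 from -0.83 to 0.36, Nlrc5 from -0.81 to 0.32 and Erap1 from -0.28 to 0.40. In PD-1- Tregs Tap1 ran from -0.088 to 0.83, Nlrc5 from -0.48 to 0.063 and Erap1 from -0.48 to 1.19. For CD4 T cells Tap1 ran from -0.081 to 0.28, Tap2 from -0.0013 to 0.27, Nlrc5 from -0.23 to 0.034 and Erap1 from -0.082 to 0.18. The means ran from -0.13 to 0.29 for Tap1, -0.35 to 0.024 for Nlrc5 and -0.094 to 0.47 for Erap1. Between populations, Nlrc5 ran from -0.23 to 0.27 and Erap1 from -0.15 to 0.19 for PD-1+ Tregs against CD4 T cells, Nlrc5 from -0.34 to 0.18 for PD-1+ against PD-1- Tregs, and H2-K1 from -0.028 to 0.041, Tap1 from -0.35 to 0.10 and Nlrc5 from -0.056 to 0.20 for PD-1- Tregs against CD4 T cells. The H2-D1 treatment difference of PD-1+ Tregs minus CD4 T cells ran from -0.28 to 0.036.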
